A study of Arabidopsis thaliana with 36 samples.

Results

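AT5G04120 belongs to the phosphoglycerate mutase family of Arabidopsis thaliana, and 1 of the 22810 probe sets of the Affymetrix array names it and no other gene. It was chosen by measured values of these arrays, a lower signal in roots on nitrate and a wide scatter between biological repeats. Those values are therefore given as a description with no test. Tests are given for what did not enter that choice: the kind of plate, the time and the way these combine with the salt.

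Proteins of this family share a fold whose active site holds a histidine that takes up and passes on a phosphate group. The family holds glycolytic mutases, which move a phosphate between carbons of phosphoglycerate, and also phosphatases, so that the family name alone does not fix the substrate of a member. In the plant cytosol the glycolytic step is carried out mainly by another, cofactor-independent kind of mutase. Nitrate is both a nutrient and a signal for roots, and a plant with roots in separate compartments adjusts each side also to what the other side finds.

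RNA was measured in roots of the ecotype Columbia on 36 arrays, 1 per sample. All plants had been raised with 0.5 mM ammonium succinate, 0.1 mM KNO3 and 3 mM sucrose, had lost the primary root below a pair of lateral roots, and had then been kept on 0.5 mM ammonium succinate alone as nitrogen source. At an age of 12 to 14 days they were moved to segmented plates with 0.3 mM sucrose and sampled after 2 hours, 8 hours or 2 days. The groups were Sp.NO3 and Sp.KCl, the sides of split plates with 5 mM KNO3 in one compartment and 5 mM KCl in the other, and C.NO3 and C.KCl, from uniform plates with the same salt on both sides. Each group had 3 biological repeats at each time, and the labels do not give the number of plants in a repeat. For the KCl samples the treatment characteristics exchange what the titles call uniform and split. The titles were followed, and the main results were also computed with the KCl groups exchanged. Values for single times, lists and genes that involve a KCl group follow the titles unless the exchange is named.

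Signals are MAS5 values on a linear scale, each array scaled to a trimmed mean of 500. Differences and SDs on the log2 scale were taken after 16 was added to each signal. Array medians lay between 194 and 222. Of the root hair markers, EXPA7 and EXPA18 had probe sets naming them alone (2 of 3 markers). Their summed signal lay between 1375 and 3382 over the arrays. Of the markers of green tissue, RCA and LHCB4.2 had probe sets naming them alone (2 of 4), with a summed signal between 215 and 802. None of these 4 markers was at 0 on any array. In whole roots, fewer cells of a type and less RNA per cell cannot be told apart.

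On split plates AT5G04120 was lower in the roots on nitrate than in the roots of the chloride side at all 3 times. At 2 hours its signal was 911, 784 and 483 in repeats 1, 2 and 3 of Sp.NO3, against 1931, 1827 and 681 in Sp.KCl. The lowest chloride root, of repeat 3, fell within the range of the nitrate roots, so that these groups overlapped. At 8 hours the signal was 919.6, 245 and 271 in Sp.NO3, against 1395, 710.2 and 655 in Sp.KCl. Here repeat 1 of the nitrate side lay above repeats 2 and 3 of the chloride side. At 2 days it was 874, 736 and 804 in Sp.NO3, against 2479, 2589.7 and 1929 in Sp.KCl, and the groups stood apart.

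On uniform plates the nitrate and chloride groups did not overlap at any time. At 2 hours the signal was 1217, 1036 and 631 in C.NO3, against 2358, 1523 and 1411 in C.KCl. At 8 hours it was 362, 392 and 72.4 in C.NO3, against 1494, 410.5 and 625 in C.KCl, and only a narrow gap lay between the highest nitrate root and the lowest chloride root. The value of 72.4, in repeat 3 of C.NO3 at 8 hours, was the lowest of all 36 arrays. At 2 days the signal was 872, 443 and 666 in C.NO3, against 1812, 1891 and 2024 in C.KCl.

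**Figure D1:**
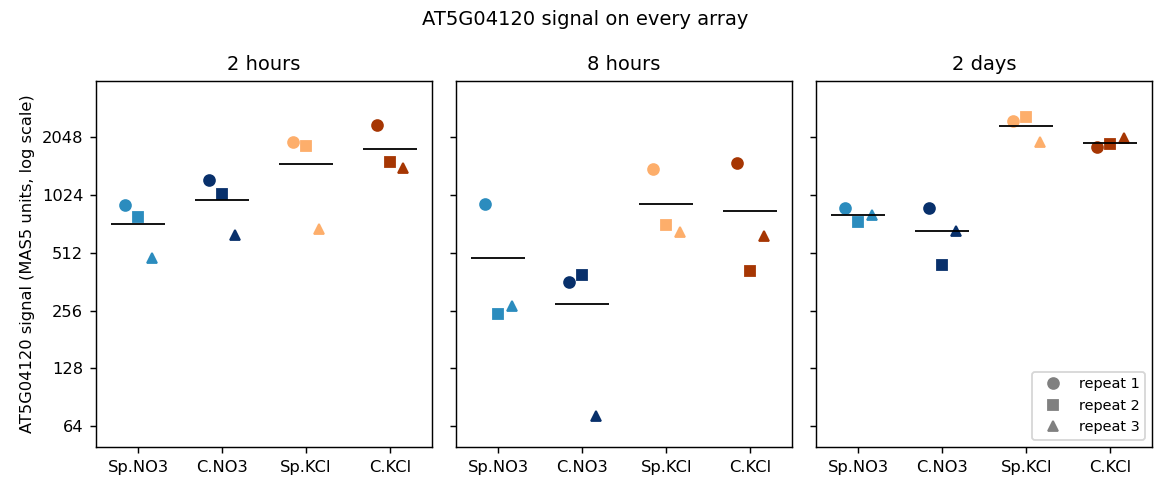
Signal of AT5G04120 on each of the 36 arrays (MAS5 units, log2-spaced axis) in the 4 treatments at each of the 3 times. Symbols mark the repeat number and black lines the mean of 3 arrays. Chloride roots stand above nitrate roots of the same plate and time in their means, the mean of each treatment is lowest at 8 hours, and the lowest array, 72.4, is repeat 3 of C.NO3 at 8 hours.

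As means with SD over 3 repeats, Sp.NO3 had 726 ± 220.04, 478 ± 382 and 804 ± 68.9 at the 3 times in order, and Sp.KCl had 1479 ± 693, 920.02 ± 412 and 2332 ± 354. C.NO3 had 961 ± 300.2, 276 ± 177 and 660.4 ± 215, and C.KCl had 1764 ± 518, 843 ± 574 and 1909 ± 107. In the mean over the times, nitrate roots were lower than chloride roots by a log2 of -1.18 ± 0.28 on split plates and -1.36 ± 0.28 on uniform plates (SE, n = 9 per salt). This is 2.26-fold and 2.56-fold. With the KCl groups exchanged the differences were -1.12 and -1.42, and by the values above the uniform groups then overlap at 2 hours and the split groups at 8 hours alone. Both values were part of the choice of the gene, and 1.17% of the 15922 probe sets tested passed on split plates (0.32% as lower on nitrate) and 3.4% on uniform plates (1.8% as lower), a threshold being an adjusted p of 0.05.

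The difference between the salts ran from a log2 of -0.92 ± 0.49 at 2 hours over -1.10 ± 0.49 at 8 hours to -1.51 ± 0.49 at 2 days on split plates (SE, n = 3 per salt), and on uniform plates from -0.88 ± 0.49 over -1.64 ± 0.49 to -1.56 ± 0.49. Whether it depended on time was tested as the interaction of salt with time. Between 2 hours and 2 days the difference moved by -0.64 ± 0.49, with a 95% interval from -1.63 to 0.36 and limma's adjusted p = 0.631, and 0.697% of probe sets passed this test. Between 2 hours and 8 hours it moved by -0.47 ± 0.49 (adjusted p = 0.940), and 0.0188% of probe sets passed. No change of the salt difference with time was detectable at this spread between repeats.

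Set side by side by repeat number within each time, nitrate roots were the lower in 9 of 9 sets on split plates and in 9 of 9 on uniform plates. On split plates these differences lay between -1.79 and -0.48, with an SD of 0.42. On uniform plates they lay between -2.86 and -0.06, with an SD of 0.85. Both extremes on uniform plates were of 8 hours. Repeat 3 gave the largest, 72.4 in C.NO3 against 625 in C.KCl, and repeat 2 the smallest, 392 against 410.5.

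**Figure D2:**
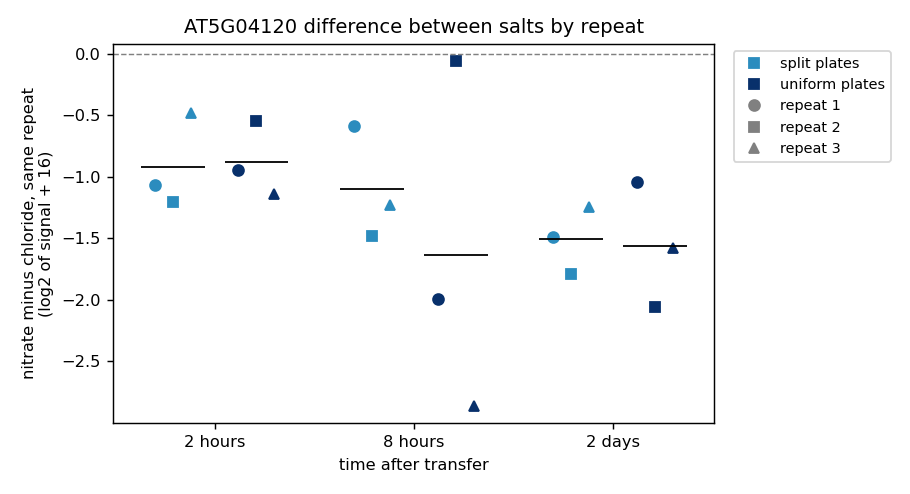
Difference of AT5G04120 between nitrate and chloride roots with the same repeat number (log2 of signal + 16), at each time, on split plates (light) and uniform plates (dark). Each point is 1 set, symbols mark the repeat and black lines the mean of 3. All 18 points lie below 0, and the widest spread, from -2.86 to -0.06, is that of uniform plates at 8 hours.

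The scatter between repeats was large and was partly shared between treatments. The SD within groups was 0.67 on the log2 scale, against a median of 0.19 over all probe sets tested, and exceeded that of 99.7% of them. At 2 hours repeat 1 lay above its group mean in all 4 treatments, by 0.37 to 0.52, and repeat 3 lay below it in all 4, by 0.28 to 0.96. The same held at 8 hours, where repeat 1 stood 0.66 to 1.18 above and repeat 3 stood 0.22 to 1.44 below its group mean. Repeat 2 did not move as one at 8 hours. It was 0.77 above the mean in C.NO3 and 0.28 to 0.80 below it in the other groups.

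At 2 days the repeats had no common order, and in 3 of the 4 treatments they lay closer together than at either earlier time. In C.NO3 the coefficient of variation was 32.5% at 2 days and 31.2% at 2 hours. Over the treatments it was 8.56% in Sp.NO3, 32.5% in C.NO3, 15.2% in Sp.KCl and 5.60% in C.KCl at 2 days, whereas at 8 hours it was 79.9%, 64.1%, 44.8% and 68.0%. Of the sum of squares within groups, 67.7% went with the repeat number within a time, against a median of 40.0% over all probe sets. With that part removed the SD was 0.44, still above that of 98.7% of probe sets. The standard errors of the salt differences over the times fell to 0.17 with the repeat number within time as a block. Deviations of AT5G04120 from its group means and those of a 3′–5′ index of RNA quality correlated at r = 0.19 over the 36 arrays. The index is the mean log2 difference between the 3′ and 5′ probe sets of control genes.

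**Figure D3:**
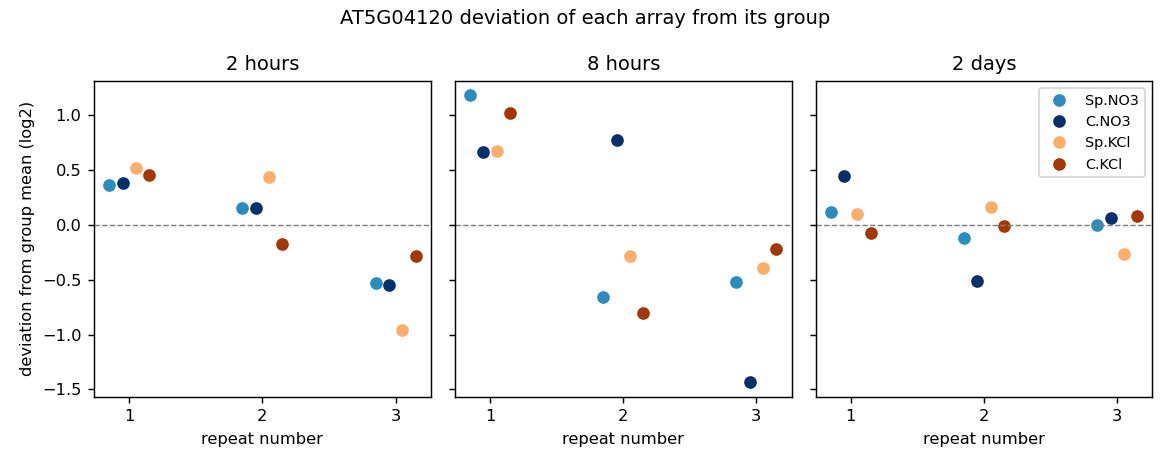
Deviation of each array from the mean of its group for AT5G04120 (log2), by repeat number, at each time. Colours mark the 4 treatments. Repeat 1 is above 0 and repeat 3 below 0 in all 4 treatments at 2 and 8 hours, while at 2 days the points lie between -0.51 and 0.44 with no common order.

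Whether the salt in the other compartment mattered was asked by setting split against uniform plates. In nitrate roots AT5G04120 differed by a log2 of 0.24 ± 0.28 between Sp.NO3 and C.NO3 in the mean over the times (SE, n = 9 per plate, limma adjusted p = 0.996), with a 95% interval from -0.33 to 0.81. In 5 of 9 same-numbered sets the split plate was the higher, and the exact two-sided sign-flip permutation test over these 9 gave p = 0.434. The value was 0.00 without C.NO3 replicate 3 of 8 hours and -0.03 without the 8-hour arrays. Among all probe sets 0.00628% passed.

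By time, the plates differed in nitrate roots by -0.39 ± 0.49 at 2 hours, 0.79 ± 0.49 at 8 hours and 0.33 ± 0.49 at 2 days (SE, n = 3 per plate, limma adjusted p = 1.00, 0.761 and 0.999). The 8-hour value was 0.07 without C.NO3 replicate 3, and the groups overlapped at each time.

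In chloride roots the plates differed by 0.06 ± 0.28 in the mean over the times (Sp.KCl minus C.KCl, SE, n = 9 per plate, limma adjusted p = 0.957), with a 95% interval from -0.52 to 0.63, and 0.245% of probe sets passed. Of the 9 sets 5 were higher on the split plate (exact sign-flip permutation p = 0.758). In the order of time the differences were -0.35 ± 0.49, 0.25 ± 0.49 and 0.28 ± 0.49 (limma adjusted p = 0.815, 1.00 and 0.897). With the KCl groups exchanged each of these 4 values changes its sign. The lack of a detectable difference does not show that the plates act alike.

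The response to the salt itself was compared between the plates by the interaction of salt with plate. It was 0.18 ± 0.40 over the times, with a 95% interval from -0.63 to 0.99 (limma adjusted p = 0.917, exact sign-flip permutation p = 0.582 over 9 sets), and 0.113% of probe sets passed. It was 0.30 (limma adjusted p = 0.925) with the KCl groups exchanged and 0.0047 (0.999) without the 8-hour arrays. These differences sit within the spread of the repeats.

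The mean signal of AT5G04120 was lowest at 8 hours in each of the 4 treatments. Over all treatments its RNA was lower at 8 hours than at 2 hours by a log2 of -1.16 ± 0.24 (SE, n = 12 per time, limma adjusted p = 0.000262), and higher at 2 days than at 8 hours by 1.30 ± 0.24 (adjusted p = 2.85e-05), a 2.47-fold difference. Between 2 hours and 2 days it differed by 0.15 ± 0.24 (adjusted p = 0.612). Such changes were common in these roots: 22.4% of probe sets passed as lower at 8 hours than at 2 hours, 32.7% as higher at 2 days than at 8 hours, and 64% differed between 2 days and 2 hours.

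Taken by treatment, the fall by 8 hours passed in C.NO3 (-1.98 ± 0.49, n = 3 per time, limma adjusted p = 0.00588), where the 8-hour and 2-hour arrays did not overlap. It was -1.26 (adjusted p = 0.0924) without C.NO3 replicate 3 of 8 hours. In Sp.NO3, Sp.KCl and C.KCl the differences were -0.80 ± 0.49, -0.62 ± 0.49 and -1.22 ± 0.49 and did not pass (adjusted p = 0.276, 0.436 and 0.0854). In C.KCl it passed without C.KCl replicate 1 of 8 hours (adjusted p = 0.0242) and without C.NO3 replicate 3 of 8 hours (0.0454). As lower at 8 hours, 7.89%, 5.77%, 6.22% and 8.02% of probe sets passed in Sp.NO3, C.NO3, Sp.KCl and C.KCl.

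The later rise passed in C.NO3 (1.45 ± 0.49, limma adjusted p = 0.0192), Sp.KCl (1.40 ± 0.49, adjusted p = 0.0275) and C.KCl (1.37 ± 0.49, adjusted p = 0.0307), and not in Sp.NO3 (0.99 ± 0.49, adjusted p = 0.123), where it was 1.58 (adjusted p = 0.0173) without replicate 1 of 8 hours. As higher at 2 days, 15.7%, 19.1%, 14.5% and 15.9% of probe sets passed in Sp.NO3, C.NO3, Sp.KCl and C.KCl. In both chloride groups the 8-hour arrays all lay below the 2-day arrays. The call in C.NO3 was lost without replicate 3 of 8 hours or replicate 1 of 2 days (adjusted p up to 0.251). It was lost in C.KCl without replicate 2 or 3 of 8 hours or any one of the 2-day replicates, and in Sp.KCl without any of 4, replicates 2 and 3 of 8 hours and 1 and 2 of 2 days (adjusted p up to 0.185 and 0.108).

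Other measures moved along with time. Both root hair expansins, proteins that loosen the cell wall, followed the same course. EXPA7 fell by 0.50 on the log2 scale between 2 and 8 hours (adjusted p = 5.73e-08) and rose by 0.79 to 2 days, and EXPA18 fell by 0.59 (adjusted p = 3.35e-07) and rose by 0.89. The summed signal of these 2 markers lay between 2017 and 2888 at 2 hours, 1375 and 2131 at 8 hours, and 2335 and 3382 at 2 days. Their part in the course of AT5G04120 was not tested. Between the salts neither differed on split plates (-0.10 ± 0.07 and -0.08 ± 0.09) or on uniform plates (-0.01 ± 0.07 and -0.12 ± 0.09) by an amount that passed.

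The 3′–5′ index, a log2 value, had a range of 0.659 to 1.17 at 2 hours, 0.611 to 1.11 at 8 hours and 1.03 to 1.27 at 2 days (12 arrays each). With the index as a covariate the fall by 8 hours was -1.05 ± 0.26 (limma adjusted p = 0.00188), and the rise to 2 days was 0.90 ± 0.45 and did not pass (adjusted p = 0.141), nor did it in C.NO3, Sp.KCl or C.KCl alone (adjusted p = 0.337, 0.184 and 0.432). The part of the index was not tested further. The green tissue markers RCA and LHCB4.2 summed to 287 to 802 at 2 hours, 215 to 642 at 8 hours and 242 to 565 at 2 days, and neither passed between 2 and 8 hours. RCA fell by 0.49 between 2 hours and 2 days. On uniform plates RCA differed by 0.27 ± 0.16 between nitrate and chloride roots (adjusted p = 0.401, and 0.0488 with the block).

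**Figure D4:**
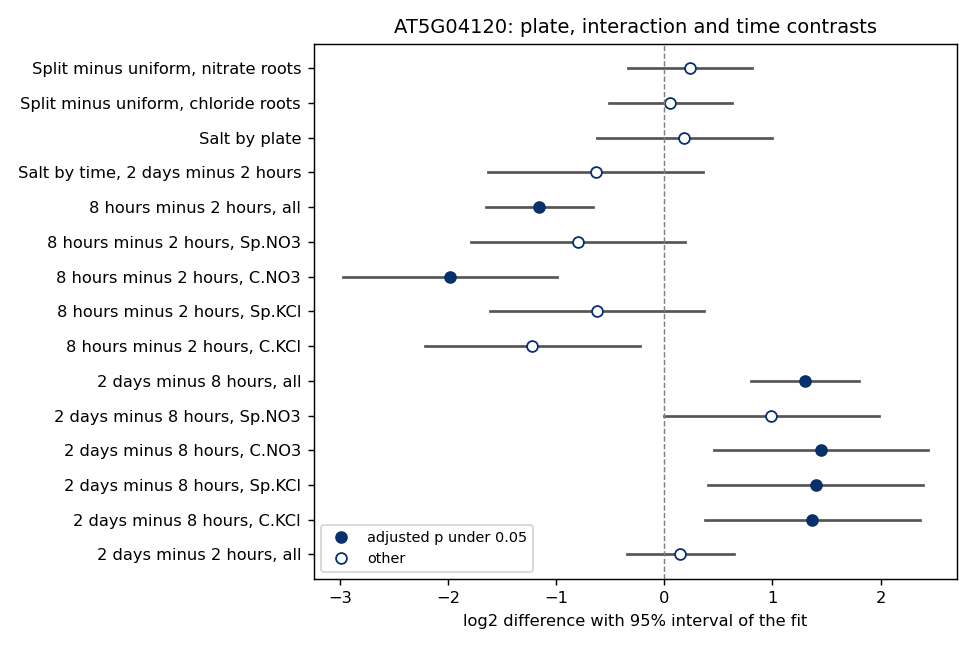
Differences of AT5G04120 that did not enter its choice, as log2 values with 95% intervals of the fit across all arrays. Filled points had an adjusted p under 0.05 in this fit, which has no block for the repeat number. The plate, salt-by-plate and salt-by-time contrasts all include 0, the fall at 8 hours was -1.16 over all treatments and the later rise 1.30.

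In the order of the 12 group means on the log2 scale, Sp.KCl at 2 days was the highest, followed by C.KCl at 2 days, C.KCl and Sp.KCl at 2 hours, C.NO3 at 2 hours, Sp.KCl at 8 hours, Sp.NO3 at 2 days, C.KCl at 8 hours, Sp.NO3 at 2 hours, C.NO3 at 2 days, Sp.NO3 at 8 hours and C.NO3 at 8 hours. The highest and lowest means were 9.75-fold apart. The ranges of neighbours overlapped in all 11 steps, and in 10 of them the neighbours differed by less than the larger of their SDs. The exception was the step from Sp.KCl to C.KCl at 2 days, 0.28 against an SD of 0.23, which did not pass the test above.

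Of 20 other genes listed as phosphoglycerate mutase-like, 16 had probe sets naming them alone and 14 were tested. On split plates 1 of the 14 was higher on nitrate and 0 were lower, and on uniform plates 1 was higher and 1 lower, or 1 higher and 2 lower with the repeat number as a block, the added one being AT2G17280 (adjusted p = 0.0425). The list's median difference was -0.03 on split plates and 0.00 on uniform plates, against 0.01 and 0.00 over all probe sets tested. The member that rose on both was PGM (AT1G78050), annotated as a phosphoglycerate/bisphosphoglycerate mutase, by 0.70 ± 0.08 on split plates and 0.40 ± 0.08 on uniform plates (SE, n = 9 per salt, limma adjusted p = 1.95e-07 and 0.00150). With the KCl groups exchanged these were 0.59 and 0.50. Its direction was opposite to that of AT5G04120. As higher on nitrate, 0.848% of all probe sets passed on split and 1.6% on uniform plates, and as lower 0.32% and 1.8%. With the block on uniform plates 4.08% of all probe sets passed as higher and 4.53% as lower.

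At 2 hours PGM averaged 786 ± 58.4 in Sp.NO3 against 475 ± 45.5 in Sp.KCl, and 851 ± 94.6 in C.NO3 against 452 ± 60.1 in C.KCl (SD, n = 3). By 2 days it averaged 1253 ± 75.1 in Sp.NO3 against 836 ± 136 in Sp.KCl, and 912 ± 119 in C.NO3 against 993 ± 107 in C.KCl. On uniform plates the PGM difference was thus 0.89 ± 0.13 at 2 hours (adjusted p = 0.000200, where 1.01% of probe sets passed as higher) and -0.12 ± 0.13 at 2 days (adjusted p = 0.790).

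The member that fell on nitrate was AT1G22170, by 0.26 ± 0.07 on the log2 scale on uniform plates (limma adjusted p = 0.0415), and it differed by -0.06 ± 0.07 on split plates (adjusted p = 0.957). The call on uniform plates was lost without any of 13 single arrays (adjusted p up to 0.107), with exchanged KCl groups (-0.15, 0.715), with no filter on dim probe sets (0.0518) and with quantile normalization (0.0723). On split plates the exchange gave -0.17 (adjusted p = 0.242). On uniform plates AT1G22170 was higher on nitrate at 2 hours (0.47 ± 0.13, adjusted p = 0.0460) and lower at 8 hours (-0.55 ± 0.13, adjusted p = 0.0417) and at 2 days (-0.70 ± 0.13, adjusted p = 0.000875), where 0.132% and 1.21% of probe sets passed as lower. At 2 days it averaged 550.01 ± 39.5 in C.NO3 against 901 ± 40.6 in C.KCl.

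AT5G15070 differed by 0.43 ± 0.24 on split and -0.71 ± 0.24 on uniform plates and passed on neither (limma adjusted p = 0.725 and 0.0981). The value on uniform plates passed without C.NO3 replicate 2 of 8 hours (0.0361), and was -0.20 with the KCl groups exchanged. The other members did not pass on either plate in the fit without the block, with differences between -0.16 (AT3G05170) and 0.10 (F2KP, which makes and breaks down fructose 2,6-bisphosphate) on split plates and between -0.22 (AT2G17280) and 0.18 (AT4G38370) on uniform plates. They were AT1G08940, AT1G12850, AT2G17280, AT3G05170, AT3G50520, AT3G60440, AT3G60450, AT4G38370, AT5G22620, AT5G64460 and F2KP.

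**Figure D5:**
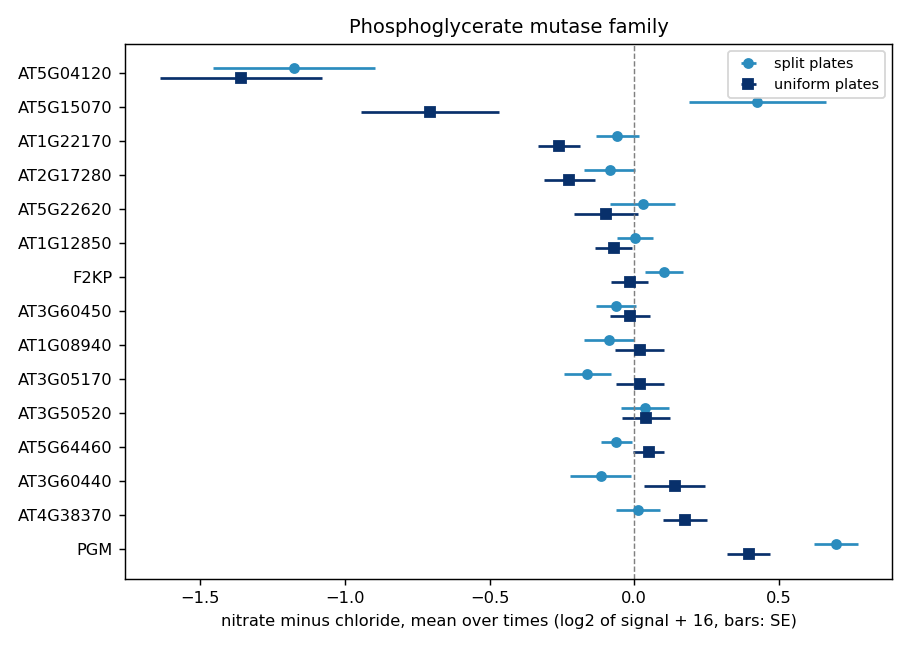
Difference between nitrate and chloride roots in the mean over the times (log2 of signal + 16, bars are SE, n = 9 per salt) for AT5G04120 and the 14 other family members tested, on split plates (circles) and uniform plates (squares). AT5G04120 lies lowest on both plates, at -1.18 and -1.36, and PGM highest, at 0.70 and 0.40.

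With time, 5 of the 14 family members fell and 1 rose between 2 and 8 hours, where 22.4% of all probe sets were lower and 22.7% higher. Those that fell were AT3G05170 (-0.34 ± 0.07), AT3G60440 (-0.33 ± 0.09), AT3G60450 (-0.28 ± 0.06), AT4G38370 (-0.18 ± 0.07) and AT1G12850 (-0.13 ± 0.05), and PGM rose by 0.42 ± 0.07. With the repeat number as a random block 4 of the 14 passed, where 31.2% of all probe sets did. Between 2 hours and 2 days 7 rose and 3 fell, where 32.4% of all probe sets were higher and 31.6% lower. The largest difference was that of AT5G15070 (1.54 ± 0.21), the dimmest of the members tested.

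Genes of glycolysis were listed as the pathway that the family name points to. Of 38, 12 had probe sets naming them alone and 11 were tested. In the limma fit 0 of the 11 passed between the salts on split or uniform plates. With the block 1, AT5G56350, passed on uniform plates (adjusted p = 0.0172). Of all probe sets 1.17% passed on split and 3.4% on uniform plates, and 8.61% on uniform plates with the block. The median differences of the 11 were 0.04 and -0.07. AT5G56350 differed by -0.10 ± 0.05 on split and -0.17 ± 0.05 on uniform plates (adjusted p = 0.661 and 0.0590). GAPC2, a glyceraldehyde-3-phosphate dehydrogenase of the cytosol, differed by 0.16 ± 0.06 on split plates and 0.03 ± 0.06 on uniform plates. At 8 hours 3 of the 11 were higher and 2 lower than at 2 hours, where 22.7% and 22.4% of all probe sets were, a share like that of the 11. With the random block 4 of the 11 passed, where 31.2% of all probe sets did, ENOC not among them (adjusted p = 0.124). The 2 were TPI, triose phosphate isomerase (-0.20 ± 0.05), and AT5G42740 (-0.24 ± 0.06).

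From 2 hours to 2 days 10 of the 11 glycolytic genes rose, with a median of 0.52, where 32.4% of all probe sets rose. ENOC, an enolase, which acts next after phosphoglycerate mutase, rose by 0.52 ± 0.05 (adjusted p = 7.79e-11). PPDK, the tested member of a list on phosphoenolpyruvate, differed by -0.02 ± 0.14 and -0.07 ± 0.14 between the salts on split and uniform plates and was lower at 8 hours than at 2 hours by -0.72 ± 0.12. Among regulators of the response to nitrate, 3 of 14 listed were tested, of which 2 rose on split and 3 on uniform plates, with medians of 0.59 and 0.65, where 0.848% and 1.6% of all probe sets rose. With the block AT1G68670 passed on split plates as well (0.27 ± 0.08, adjusted p = 0.0924 without it and 0.00601 with it). Among them AT3G25790 rose by 1.05 ± 0.10 and 0.79 ± 0.10. This list was chosen with earlier results of these data known, so that its counts are a description.

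Named genes whose 12 group means followed those of AT5G04120 most closely were AT1G52660 (r = 0.916), AT3G49960 (0.902), AT2G38740 (0.896), AT4G22840 (0.894) and AT4G28890 (0.880). The 12 points share arrays and times, and these values describe likeness over the groups. Of 15921 other probe sets 3 exceeded 0.9, of which 2 name 1 gene. The 5 genes varied over a much narrower range than AT5G04120, with differences between nitrate and chloride roots from -0.28 to -0.11 on split plates and from -0.54 to -0.13 on uniform plates. Between 8 and 2 hours they differed by -0.62 (AT3G49960) to -0.18 (AT4G28890). These genes were picked for following the salt and time pattern of AT5G04120, so that their differences are a description with no test.

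By rank correlation 2 of these 5 were again among the 5 highest, and after quantile normalization 3 were. AT3G49960 averaged 486 ± 199 in Sp.NO3 against 533 ± 59.2 in Sp.KCl at 8 hours, and 430.08 ± 78.5 in C.NO3 against 749 ± 273 in C.KCl (SD, n = 3).

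The mirror image was clearest in AT4G33960 (r = -0.929), AT3G16560 (-0.924) and AT5G14530 (-0.921). They were picked for this opposite pattern, and their values too are a description. AT4G33960 differed between nitrate and chloride roots by 0.97 ± 0.15 on split plates and 1.28 ± 0.15 on uniform plates, and between 8 and 2 hours by 1.08 ± 0.13. At 8 hours it averaged 647 ± 92.1 in Sp.NO3 against 299 ± 66.8 in Sp.KCl, and 767 ± 150.1 in C.NO3 against 298 ± 75.4 in C.KCl. AT3G16560 differed between the salts by 0.84 ± 0.11 and 0.95 ± 0.11 on the same plates, and AT5G14530 by 0.11 ± 0.09 and 0.19 ± 0.09.

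Other genes shared the scatter between repeats. Over the 36 deviations from group means the closest named genes were AT2G22230 (r = 0.799), AT4G12600 (0.791), RALFL34, a RALF-like peptide of the kind secreted as signals between cells (0.774), AT1G79260 (0.761) and AT2G39390 (0.754). AT1G51790 (-0.829), AT1G77480 (-0.822) and AT5G59680 (-0.794) deviated the opposite way. In the limma fit without the block 0 of these 8 passed between the salts on split or uniform plates. Their differences lay between -0.28 and 0.10, and 1.17% and 3.4% of all probe sets passed. RALFL34 (-0.25 ± 0.10) and AT5G59680 (-0.28 ± 0.16) passed on uniform plates with the block (adjusted p = 0.0120 and 0.0317), where 8.61% of all probe sets did. Of the 5 closest, 0 were among the 5 closest over the group means. With the part that goes with the repeat number removed, the 5 positive correlations were 0.307 to 0.509 and those of AT1G51790, AT1G77480 and AT5G59680 were -0.572, -0.766 and -0.513. The deviations have 24 degrees of freedom and share arrays, and these values describe the scatter of these samples.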

How the data were processed

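RNA of 36 root samples was measured on 1 single-colour array each. The deposited intensity values are MAS5 signals, per the submitters' processing notes, which name no version. The arrays had been scaled by the authors to a mean of 500 after trimming 2% at each end, as the values show, and nothing more on upstream processing was found in the labels. 64 control probe sets were left out, log2(signal + 16) was taken, and probe sets below the 30th percentile of the mean (a signal of 68.9) were dropped, which left 15922. In R 4.3.3, limma 3.58.1 fitted 12 group means to all arrays with an intensity trend (24 residual degrees of freedom), and p-values are two-sided, adjusted by Benjamini-Hochberg over the 15922 within each contrast, with a threshold of 0.05. The fit was tested on simulated data with independent noise on each array, which does not cover scatter shared by a repeat number. Precision is limited by the 3 arrays of a group, and p-values measure the spread between these samples.

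The block is the repeat number within time (random where times are compared). Deviations of same-numbered arrays from group means correlated over 0.1 in 9 of 9 sets on uniform plates, 8 of 9 on split plates, 7 of 9 in nitrate and 6 of 9 in chloride roots. The lowest correlations were 0.0044 in nitrate and -0.050 in chloride roots. The block and the sign-flip tests use the numbers in all of these comparisons, although only on uniform plates did every set exceed 0.1.

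Gene names come from GEO's platform annotation (1 gene for 13513 probe sets, several for 503, none for 8794), with RefSeq locus tags for 13436. The gene and the lists were chosen with earlier results of these data known. Named are AT5G04120, the 5 highest and 3 lowest by each correlation, all tested family members, and of each other list up to 4 members that passed and 2 others. Listed genes for cofactor-independent mutases, serine synthesis, endodermis and vessels had no probe set naming them alone, and their values are not analysed here.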

Additional observations from a re-analysis of the deposited data

Results flagged for a closer look

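PGM and AT1G22170, both of the family of AT5G04120, differed between times in their response to nitrate. The interaction of salt with time, 2 days minus 2 hours over both plates, was -0.57 ± 0.13 for PGM (limma adjusted p = 0.0328, n = 12 per time) and -0.69 ± 0.13 for AT1G22170 (adjusted p = 0.00435). Of all probe sets 0.697% passed. On split plates PGM was higher on nitrate at 2 hours by 0.71 ± 0.13 and at 2 days by 0.59 ± 0.13. There AT1G22170 averaged 554 ± 61.6 in Sp.NO3 against 518 ± 72.3 in Sp.KCl at 2 hours (SD, n = 3). At 2 days it averaged 659 ± 57.8 against 720 ± 55.0. F2KP, also of the family, moved the other way by 0.41 ± 0.11 (limma adjusted p = 0.0889). It passed with the block (adjusted p = 0.0148), where 2.79% of all probe sets did. AT5G04120 itself met none of the criteria, and groups of 3 were not tested for single outlying arrays.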

How the results depend on the processing

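The salt differences of AT5G04120 lay between -1.21 and -1.11 on split plates and between -1.42 and -1.22 on uniform plates under 12 alternatives each, and leaving out single arrays gave -1.37 to -1.06 and -1.49 to -1.12. The fall between 2 and 8 hours passed under all 11 of its alternatives (-1.20 to -1.05) and without any single array (-1.30 to -0.98). With exchanged KCl groups the plate difference in chloride roots was -0.056 in the mean and 0.35, -0.25 and -0.28 at the 3 times in order, and AT5G15070 differed by -0.077 on split plates. Without the 8-hour arrays, chosen after seeing the data, the plate difference was -0.034 in nitrate roots and -0.038 in chloride roots. When the index entered the fit, the difference between 2 days and 2 hours was -0.15. None of these reversed values passed the test. Leaving out single arrays gave 0.00 to 0.37 for the plate difference in nitrate roots, -0.078 to 0.23 in chloride roots (-0.61 to 0.13 at 2 hours and -0.16 to 0.76 at 8 hours), -0.056 to 0.32 for salt by plate, -0.77 to -0.40 for salt by time, and 0.03 to 0.21 for 2 days against 2 hours. With the replicate block the plate difference in nitrate roots kept its value of 0.24 (adjusted p = 0.740), and the block changed no call of AT5G04120. For times this holds for the random block, which uses 1 correlation of 0.21 for all probe sets. Of the scatter of AT5G04120 within groups 67.7% went with the repeat number, against a median of 40.0%. The random block may thus leave its standard errors too small for the time contrasts. With the random block 8 of the 14 other family members passed between 2 hours and 2 days, against 10 without it. Of all probe sets 53.7% passed with the random block and 64% without it. The rise to 2 days in Sp.NO3 passed with only the arrays compared (adjusted p = 0.0448), and those in C.KCl and Sp.KCl did not pass without variance moderation (0.0599 and 0.0557). For the interaction of salt with plate over the times, a fit to only the arrays compared is the same fit. The cause of these changes was not tested.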
